A study of Sus scrofa with 6 samples.

Results

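In the developing cerebral cortex of the pig, the signals of 6 genes that steer migrating cells were examined, namely the receptors CXCR4, PLXNA2 and ADGRG1, the small GTPase RND3, the actin cross-linker FLNA and the membrane enzyme DPY19L1. The genes were chosen by name as regulators of radial and tangential migration, with their differences between the embryonic days already known. These differences are therefore given as a description, without p-values. Whether a probe set of these genes passed the threshold set for the whole array is stated in the same sense, and is not evidence for its difference. Every probe set of the Affymetrix Pig Genome Array annotated to 1 of these symbols and to no other was used, which gave 10 probe sets of the 23999 tested and 6 genes of the 6765 named. RND3 had 4 probe sets, ADGRG1 had 2, and DPY19L1, CXCR4, PLXNA2 and FLNA had 1 each. The study compared cortical tissue of embryos at embryonic day 80 (E80), when the first folds have appeared, with that of embryos at embryonic day 60 (E60), when the surface is still smooth. Each day had 3 arrays, numbers 4, 5 and 6 at E80 and numbers 1, 2 and 3 at E60, each hybridised with total RNA from 1 embryo. The embryos carried no genetic change and received no treatment that the labels name. They are described as litter mates, without saying which embryos shared a litter. Embryos of different days cannot share a litter, so a litter effect cannot be told apart from the difference between the days. The spread between arrays is the spread between embryos of a day, which may be siblings.

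Newborn excitatory neurons move outward along the fibres of radial glia, which is radial migration, whereas interneurons born below the cortex travel parallel to its surface, which is tangential migration. Both depend on attractant and repellent cues, on the receptors that read them and on a cytoskeleton that is rebuilt as the cell moves. CXCR4 reads the chemokine CXCL12, which is made by the meninges and in the cortex and keeps interneurons and Cajal-Retzius cells in their streams. RND3 acts on the actin cytoskeleton, and in mouse cortex it is needed for neurons to move along the radial fibres. In human, mutations in ADGRG1 and in FLNA disturb the final position of cortical neurons.

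The tissue was whole cortex, so that fewer cells of a type and less RNA per cell cannot be told apart in any of the values. Summed signals of 7 of 10 dividing cell markers lay between 584 and 714 at E80, against 1056 to 1147 at E60, and 3 of their 11 probe sets (PCNA, CCNB1 and TOP2A) fell at E80. Astrocyte markers (6 of 7 genes) summed to 3056 to 4406 at E80 and 2125 to 2434 at E60, and markers of endothelium (10 of 10 genes) to 1202 to 1432 at E80 and 1492 to 1651 at E60. The sum over 3 of 8 immature neuron markers was 8332 to 8771 at E80 and 7145 to 8064 at E60, and over 7 of 13 radial glia markers 4842 to 5368 at E80 and 5322 to 5480 at E60. CLDN5 made up much of the endothelial sum, with 640 to 813 at E80 and 768 to 900 at E60, days that overlapped. Nearly all of the immature neuron sum was STMN1 and STMN2, and NEUROD1 overlapped between the days (-0.15 on its brighter probe set). The radial glia sum was mostly VIM and FABP7, and the list was split in direction. Of its 7 probe sets 3 rose at E80 in limma, HOPX by 0.84, FAM107A by 1.00 and TNC by 1.01 on the log2 scale (adjusted p = 0.0226, 0.0444 and 0.0494). VIM and HES1 had all E80 arrays below all E60 arrays (-0.38 and -0.34, adjusted p = 0.179 and 0.287). FABP7 and SLC1A3 overlapped between the days (-0.03 and 0.12). Of the 10 astrocyte probe sets 3 rose as well, and of the 21 endothelial and 5 immature neuron probe sets none rose or fell in limma (3 and 1 at an unadjusted p below 0.05). Over the whole array 0.933% of probe sets rose, 1.01% fell and 18.0% had an unadjusted p below 0.05 in limma. None of the 9 genes listed as markers of the cerebral cortex itself had a probe set with a single symbol, so the labelled tissue was not checked against them. Array 6 of E80 stood apart, with summed choroid plexus markers (5 of 7 genes) at 5466, against 112 and 197 on the other E80 arrays and 90.3 to 176 at E60. The part of these cell types in the differences below was not tested.

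Of the 10 probe sets of the migration genes, 3 had lower signal at E80 past an adjusted p of 0.05 in limma's moderated test, and none had higher signal. Over the whole array, 1.01% of probe sets fell and 0.933% rose by the same rule. In 8 of the 10, all E80 arrays lay below all E60 arrays, which held for 14.4% of all probe sets, and the opposite order, seen in none of the 10, held for 9.25% of all. Their median log2 difference, E80 minus E60, was -0.71, with a range of -1.40 to 0.11, beside a median of -0.05 over all probe sets. Since the genes were chosen with these differences known, nothing is read from the comparison of their counts with the whole array. The split of all calls depended on the scaling, with 224 probe sets that rose and 243 that fell on the deposited scale and 311 that rose and 108 that fell after each array was centred on its median.

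**Figure D1:**
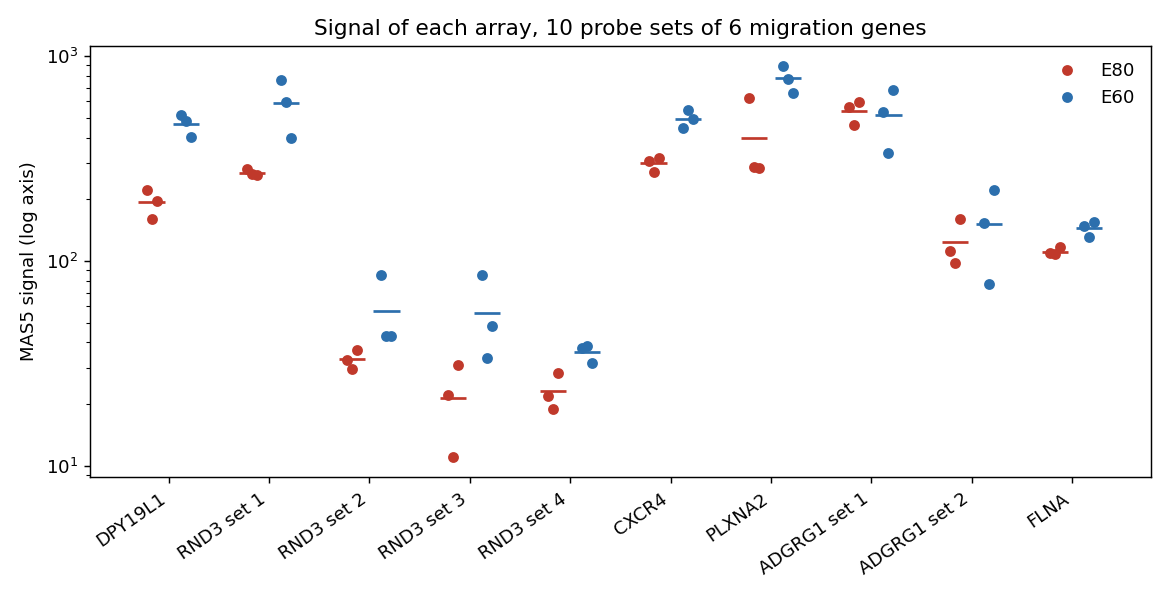
MAS5 signal (log axis) of the 10 probe sets of the 6 migration genes, with 1 point per array and the mean of each day as a line. The E80 arrays lie below all E60 arrays in 8 probe sets, and the days overlap in both ADGRG1 probe sets.

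DPY19L1 had the largest difference of the 3 genes past the threshold. Its product belongs to the enzymes that attach mannose to tryptophan in the endoplasmic reticulum, and in mouse it is needed for the radial migration of excitatory neurons. Its signal was 222, 160.2 and 196 on arrays 4, 5 and 6 of E80, and 513, 482 and 404 on arrays 1, 2 and 3 of E60. The highest E80 array lay far below the lowest E60 array. The means were 193 ± 31.0 at E80 and 467 ± 56.0 at E60 (SD, n = 3 each), a level 58.7% lower at E80. The log2 difference was -1.28 with a standard error of 0.15 and passed the threshold. It kept its sign in all 13 other settings, at -1.39 to -1.15, and passed the threshold in 9 of these. The call was lost when array 1, 2 or 4 was left out and in a variance model without an intensity trend.

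Of the relatives and possible targets of DPY19L1, only 2 of 10 listed genes had a probe set with a single symbol. UNC5B, a netrin receptor of a family known to carry the mannose mark, had 57.3, 60.9 and 55.0 at E80 and 62.3, 63.2 and 40.0 at E60. These days overlapped, with a log2 difference of 0.09 (adjusted p = 0.868). NTN1, the netrin cue, was dim on every array, at 0.624 to 6.72 at E80 and 2.51 to 6.34 at E60, and is not read further.

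CXCR4, the chemokine receptor, had the tightest replicates after FLNA. Its signal was 308, 272 and 319 on the E80 arrays and 447, 543 and 492 on the E60 arrays. All of the E80 arrays lay below those of E60. The means were 299.6 ± 24.1 at E80 and 494 ± 47.8 at E60 (SD, n = 3 each), which is 39.3% lower at E80. The log2 difference was -0.72 (SE 0.11) and passed the threshold, also without array 6 (-0.77). The call was lost after median centring, without the intensity trend and when array 1, 2, 3 or 4 was left out, while the sign stayed negative throughout.

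The ligand of CXCR4 did not separate the days. CXCL12 gave 70.4, 218 and 49.6 at E80 and 177, 134 and 176 at E60 on its brighter probe set, a log2 difference of -0.82 (SE 0.47, adjusted p = 0.415). The dimmer probe set gave 62.3, 201 and 45.7 at E80 and 152, 114 and 118 at E60 (log2 difference -0.61, adjusted p = 0.558). On both probe sets array 5 was the highest of all 6 arrays, while arrays 4 and 6 were the lowest. Of the 6 measured genes of fibroblasts and meninges, 5 were likewise highest on array 5 within E80 on their brightest probe set, and COL3A1 was not. The proteoglycan LUM had 90.4, 196 and 71.1 at E80 and 213, 241 and 198 at E60. FBLN1, an extracellular matrix protein, had 213, 365 and 199 at E80 and 427, 459 and 466 at E60. The summed signal over 6 of 7 genes of that list ranged between 1181 and 2231 at E80 and between 2054 and 2913 at E60, and its part in the CXCL12 values was not tested. CXCR4 itself was lowest on array 5 within E80.

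CXCL14, another chemokine of the CXC family, was higher at E80. Its probe set with the tighter arrays had 213, 203 and 224 at E80 and 127, 110.2 and 147 at E60, and rose by 0.74 on the log2 scale (SE 0.14, adjusted p = 0.0386, range over the other settings 0.0168 to 0.151). The call was lost without the intensity trend and when array 1, 2, 4, 5 or 6 was left out. The second probe set had 348, 292 and 382 at E80 and 262, 137 and 215 at E60. There too the days did not overlap, but the difference of 0.78 (SE 0.23) did not pass the threshold (adjusted p = 0.126). Of the 10 probe sets for 7 of 10 genes on the list of the CXCR4 axis, 1 rose and none fell in limma, with a median log2 difference of 0.10. Over the whole array 0.933% rose and 1.01% fell. An unadjusted p below 0.05 in limma was reached by 3 of the 10, beside 18.0% of all probe sets. ARRB2, an arrestin that turns chemokine receptors off, had 493, 438 and 463 at E80 and 351, 356 and 394 at E60 (0.34, adjusted p = 0.112). GNAI1, a subunit of the inhibitory G protein through which CXCR4 signals, overlapped between the days on its brighter probe set (0.19, adjusted p = 0.312).

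**Figure D2:**
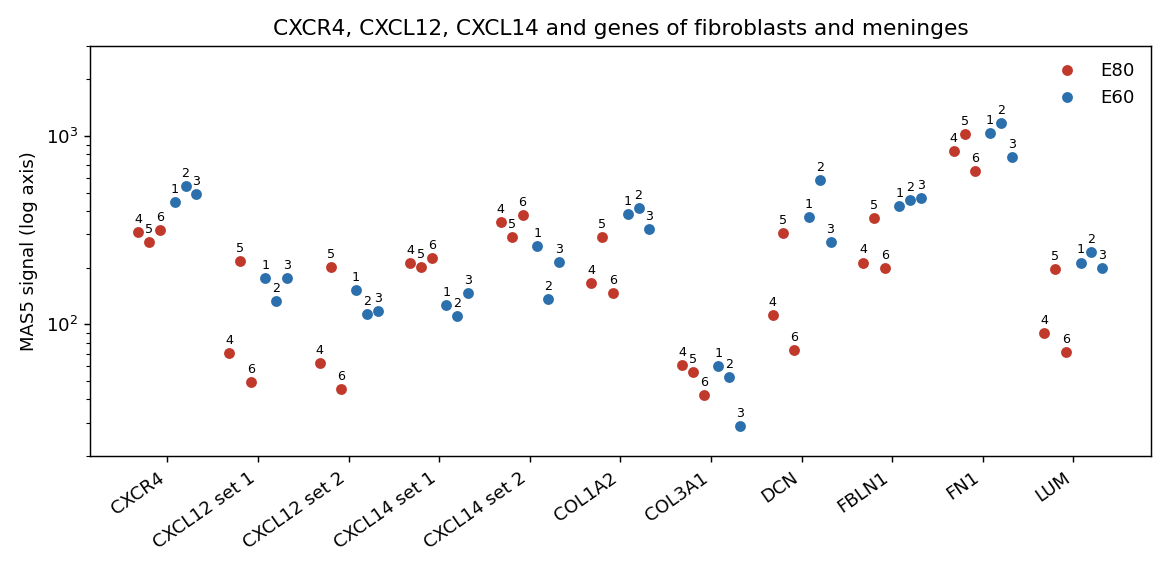
MAS5 signal (log axis) of CXCR4, both probe sets each of CXCL12 and CXCL14, and the brightest probe set of each measured gene on the fibroblast and meninges list. Each point is 1 array, labelled with its number. CXCR4 separates the days, whereas CXCL12 is highest on array 5 of E80.

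PLXNA2 had non-overlapping days but 1 array that stood apart. Plexins are receptors for semaphorins, which mostly repel growing axons and migrating cells. The signal of PLXNA2 was 627, 289 and 283 on the E80 arrays and 899, 774 and 659.9 on the E60 arrays. Array 4 lay close to the lowest E60 array, while arrays 5 and 6 were far below. The means were 399.8 ± 197 at E80 and 778 ± 119 at E60 (SD, n = 3 each). The log2 difference of -1.05 (SE 0.29) did not pass the threshold. It was -1.43 without array 4 and -0.86 without array 6, and it stayed negative in all 13 settings.

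Few semaphorins and plexins were measured. Of 34 listed genes of this system, 3 had probe sets with a single symbol, and none of their 4 probe sets passed the threshold in either direction in limma (median log2 difference 0.05, with 0 at an unadjusted p below 0.05, against 18.0% of all probe sets). PLXNB1, a plexin for class 4 semaphorins, had 201, 235 and 261 at E80 and 209, 242 and 247 at E60 on its brighter probe set, a log2 difference near 0 (SE 0.13, adjusted p = 0.990). Its dimmer probe set differed by -0.20 (adjusted p = 0.588). SEMA4D, the ligand of PLXNB1, had 224, 114 and 250.2 at E80 and 192, 162 and 166 at E60 (0.10, adjusted p = 0.882). NRP2, a co-receptor of class 3 semaphorins, was dim, with signals of 6.16 to 9.14 at E80 and 3.32 to 4.42 at E60 (0.90, adjusted p = 0.322). No probe set on this list followed PLXNA2 in separating E80 below E60, an order that 14.4% of all probe sets had.

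ADGRG1, an adhesion G protein coupled receptor also known as GPR56, did not separate the days on either probe set. In the cortex it sits on radial glia and other cells, and its ligand there, known from mouse, is type III collagen of the meninges. The brighter probe set had 562, 462 and 595 at E80 and 536, 337 and 680.3 at E60. The means were 539.6 ± 69.1 at E80 and 518 ± 172 at E60 (SD, n = 3 each), with a log2 difference of 0.11 (SE 0.24). The other probe set had 112, 98.2 and 161 at E80 and 153, 76.9 and 223 at E60. Its means were 124 ± 32.7 at E80 and 151 ± 72.9 at E60 (SD, n = 3 each), with a difference of -0.19 (SE 0.36). In both, the E60 arrays enclosed the E80 arrays, with array 2 the lowest and array 3 the highest of all 6. The sign depended on single arrays: the brighter probe set gave -0.17 without array 2, and the dimmer one gave 0.16 without array 3. Without array 6 the values were 0.04 and -0.39.

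Among 9 measured of 21 listed ligands and partners of ADGRG1, no probe set of 14 passed the threshold in limma, and the median log2 difference was 0.03. An unadjusted p below 0.05 was reached by 3 of the 14, beside 18.0% over the whole array. CD9 and CD81 are tetraspanins, membrane scaffold proteins known to form complexes with ADGRG1. CD81 had 1602, 1627 and 1634 at E80 and 1182, 1139 and 1375 at E60 (0.40, SE 0.09, adjusted p = 0.071). CD9 had 191, 154 and 234 at E80 and 119, 113 and 100.1 at E60 (0.79, SE 0.17, adjusted p = 0.060). The days did not overlap in these, although neither passed. COL3A1, the collagen ligand, had 61.1, 56.1 and 42.3 at E80 and 60.0, 52.9 and 28.9 at E60 (0.22, adjusted p = 0.756). LAMC1, a laminin chain of the basement membrane that anchors radial fibres, had 173, 165 and 158 at E80 and 228, 239 and 176 at E60 on its brightest probe set (-0.36, adjusted p = 0.225). The dimmer LAMC1 probe sets overlapped between the days (-0.54, -0.20 and -0.22).

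RND3 was lower at E80 on all of its 4 probe sets, although only the brightest passed the threshold. That probe set had 282, 264 and 263 at E80 and 765, 596 and 399 at E60. The E80 arrays were nearly alike, and the spread lay in E60. The means were 269.9 ± 10.6 at E80 and 587 ± 183 at E60 (SD, n = 3 each), a level 54.0% lower at E80. The log2 difference was -1.07 (SE 0.21). It passed the threshold in 4 of the 13 other settings. The call was lost after quantile normalization, after median centring, with 32 added to each signal, without the intensity trend and when array 1, 2, 4, 5 or 6 was left out, at values of -1.32 to -0.85 over the arrays left out.

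The other 3 RND3 probe sets lay below the median signal of 59.8 on most arrays and did not pass. The first of them had 33.0, 29.5 and 36.8 at E80 and 84.9, 43.0 and 42.8 at E60. Its difference of -0.71 (SE 0.30) shrank to -0.38 without array 1. The second had 22.3, 11.0 and 30.9 at E80 and 85.6, 33.7 and 48.1 at E60, a difference of -1.40 (SE 0.46). The third had 21.9, 19.0 and 28.3 at E80 and 37.4, 38.5 and 31.7 at E60, with -0.65 (SE 0.25). Each separated the days in the same direction as the bright probe set. With 32 added to every signal, which damps dim probe sets, the 3 differences were -0.42, -0.69 and -0.30. Probe sets of 1 gene read the same embryos and are not independent evidence.

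FLNA had the smallest spread of the 6 genes and a small difference. It links actin filaments into networks and ties them to integrins and other membrane proteins. Its signal was 109, 107.5 and 117 on the E80 arrays and 148, 130.2 and 154 on the E60 arrays. No E80 array reached any E60 array. The means were 111 ± 5.06 at E80 and 144 ± 12.5 at E60 (SD, n = 3 each), which is 22.9% lower at E80. The log2 difference of -0.37 (SE 0.13) did not pass the threshold, and lay between -0.44 and -0.26 in the other settings.

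Partners of FLNA were mixed in direction and none of 16 probe sets, for 9 of 16 listed genes, passed in limma, with 4 at an unadjusted p below 0.05 (18.0% over the whole array). ITGB1, the integrin chain that filamin binds, had 509, 524 and 483 at E80 and 651, 651 and 628 at E60. It separated the days like FLNA, with a difference of -0.35 (SE 0.08, adjusted p = 0.074). VIM, the intermediate filament of radial glia, had 1353, 1859 and 1794 at E80 and 2075, 2323 and 2050 at E60 (-0.38, adjusted p = 0.179). RALA, a small GTPase that binds filamin, lay on the other side on its brightest probe set, with 968, 952 and 816 at E80 and 677, 792 and 698 at E60 (0.34, adjusted p = 0.143). Another RALA probe set separated the days in the same direction (0.22, adjusted p = 0.270). The rest overlapped between the days (-0.007 and 0.10, adjusted p = 0.983 and 0.899). ARFGEF2, whose loss in human gives misplaced neurons as loss of FLNA does, overlapped between the days on both probe sets (-0.18 and 0.07, adjusted p = 0.600 and 0.785).

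**Figure D3:**
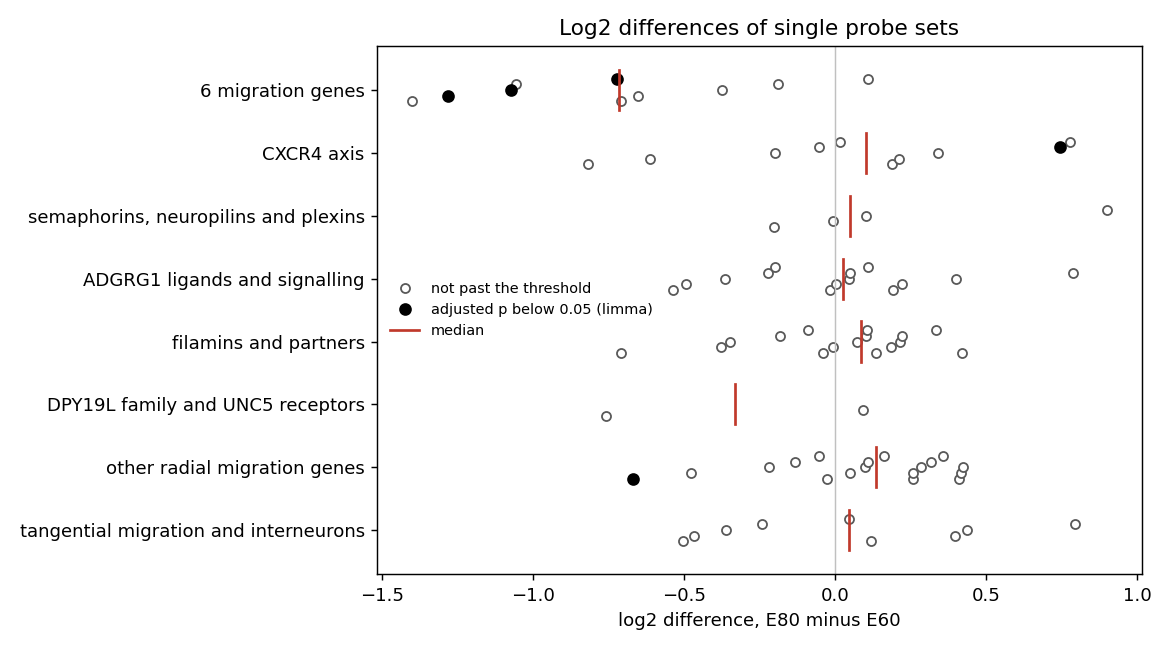
Log2 difference (E80 minus E60) of each probe set of the 6 migration genes and of 7 lists of related genes, with filled points past an adjusted p of 0.05 and the median of each row as a line. The median is -0.71 for the 6 migration genes and lies between -0.33 (a list with 2 probe sets) and 0.14 for the lists. The 6 genes were chosen with these differences known, so nothing is read from the comparison.

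Over all 8 lists, 1 of which is not described here, 56 of 152 genes had 87 probe sets, of which 1 rose, 1 fell and 85 did not pass, with a median log2 difference of 0.05. In 15 of these all E80 arrays lay above all E60 arrays, in 7 all lay below, and in 65 the days overlapped. Over the whole array the first order held for 9.25% of probe sets and the opposite order for 14.4%, while 0.933% rose and 1.01% fell in limma. Of the 87, 21 had an unadjusted p below 0.05 in limma, as had 4308 (18.0%) of all 23999 probe sets. The probe set that fell was LRP8, also called ApoER2, a receptor for the stop and positioning signal reelin. It had 536, 459 and 425 at E80 and 797, 782 and 671 at E60, and fell by 0.67 on the log2 scale (SE 0.12, adjusted p = 0.0361, range over the other settings 0.0194 to 0.169). The call was lost after median centring, without the intensity trend and when array 1, 2, 4, 5 or 6 was left out.

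The list of other radial migration genes had 13 of 24 genes measured and 18 probe sets, with a median log2 difference of 0.14. In limma 1 of the 18 fell, the LRP8 probe set given above, and none rose (1.01% and 0.933% of all probe sets). An unadjusted p below 0.05 in either direction was reached by 6, beside 18.0% of all probe sets. All E80 arrays lay above all E60 arrays in 4 and below in 2 (9.25% and 14.4% of all). Those 2 were LRP8 and the dimmer VLDLR probe set (-0.48, adjusted p = 0.215). The brighter VLDLR probe set overlapped between the days (0.16, adjusted p = 0.554). NDEL1, which couples dynein to the moving nucleus, had 689, 627 and 682 at E80 and 469.9, 543 and 491 at E60 (0.41, adjusted p = 0.068). PAFAH1B1, known as LIS1 and a partner of NDEL1, had 1721, 1500.3 and 1520.3 at E80 and 1314, 1206 and 1365 at E60 on its brighter probe set (0.29, adjusted p = 0.154). Its dimmer probe set overlapped between the days (-0.03, adjusted p = 0.903). By qRT-PCR in cortex of the same days, the study reported lower NDEL1, VLDLR, FLNA and GPR56 (ADGRG1) at E80. It reported higher LIS1 and no significant change of ApoER2 (LRP8). The array values of NDEL1, ADGRG1 and LRP8 differ from those reports, and the reason was not tested. Genes of interneurons and tangential migration were measured for 5 of 24, with 9 probe sets, none past the threshold in limma and 2 at an unadjusted p below 0.05, where 18.0% of all probe sets lay. SATB1, a nuclear protein of maturing interneurons and other neurons, had 409, 467 and 341 at E80 and 193, 208 and 309 at E60 on the brightest of its 4 probe sets (0.80, SE 0.19, adjusted p = 0.082). The other 3 overlapped between the days, with differences of 0.44, 0.40 and 0.05. DLX5, a transcription factor of interneuron precursors, had 105, 87.6 and 163 at E80 and 262, 128 and 127 at E60 (-0.50, adjusted p = 0.468). GAD2 and GAD1 are the enzymes that make GABA. The brighter GAD2 probe set had 176, 124 and 202 at E80 and 255, 165 and 173 at E60 (-0.24, adjusted p = 0.625), and GAD1 had 1031, 969.8 and 943 at E80 and 1078, 794 and 859.7 at E60 (0.12, adjusted p = 0.662). These values stand beside the lower signal of CXCR4, a receptor that migrating interneurons and other cells carry.

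Within a day, some of the genes ranked the embryos alike. Both ADGRG1 probe sets and FLNA placed the arrays in 1 order, with array 5 lowest and array 6 highest at E80 and array 2 lowest and array 3 highest at E60. This order was held by 5.67% of the 11999 probe sets brighter than the median. After the mean of each day was subtracted from the log2 signals, the correlation over the 6 arrays was 0.97 between the ADGRG1 probe sets, 0.95 between the brighter one and FLNA, and 0.99 between the dimmer one and FLNA. The size differed: array 2 lay 0.84 below its day on the dimmer ADGRG1 probe set and 0.14 below on FLNA. RND3 on its bright probe set and PLXNA2 shared another order, with array 6 lowest and array 4 highest at E80 and array 3 lowest and array 1 highest at E60, which 3.72% of the bright probe sets held. These patterns were noticed after the values were seen, the arrays share their RNA and labelling across genes, and no test was made.

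**Figure D4:**
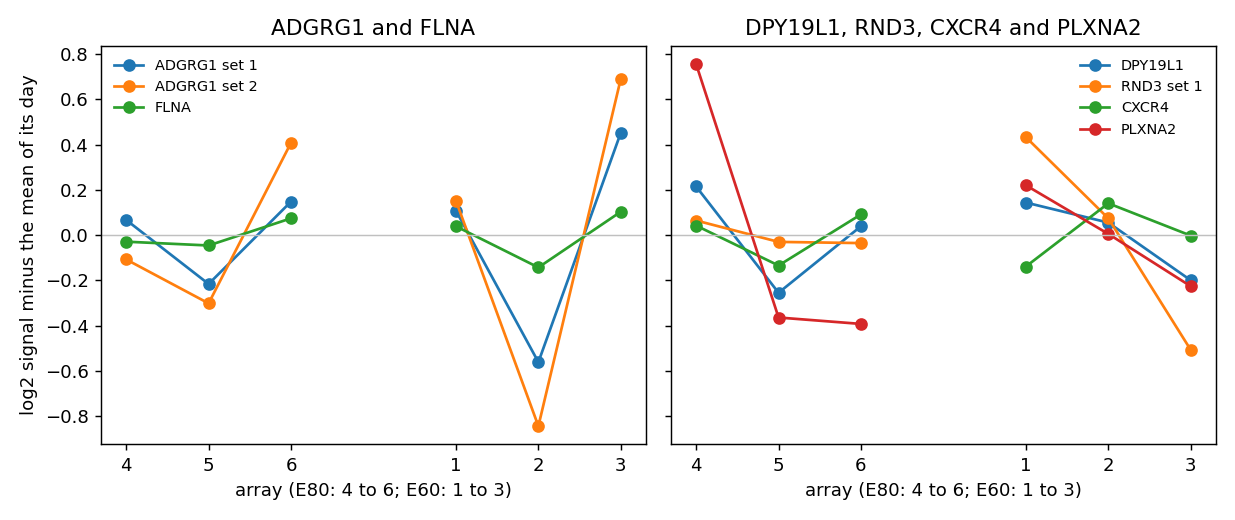
Log2 signal minus the mean of its day, by array, for ADGRG1 and FLNA (left) and for DPY19L1, RND3 on its brightest probe set, CXCR4 and PLXNA2 (right). Lines only join the points of a probe set. Array 2 is lowest and array 3 highest at E60 in the left panel, and array 4 of PLXNA2 lies 0.76 above its day.

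The genes most like each of the 6 over all arrays were found by Pearson's correlation of log2 signals over 6 arrays, as a description among 6090 candidate probe sets. DPY19L1 was most like TRIM24 (0.999), a transcriptional coregulator, and TMEM44 (0.997), a membrane protein. RND3 was most like DENND6A (0.998), an exchange factor for Rab GTPases, and SMARCA5 (0.994), a chromatin remodelling ATPase. For CXCR4 they were QSER1 (0.993) and LMAN2 (0.988), a lectin of the secretory pathway. For PLXNA2 they were DGKE (0.992), a diacylglycerol kinase, and RTL6 (0.984). For ADGRG1 they were PEX14 (0.990), a peroxisomal import protein, and LOC102159087 (0.969). For FLNA they were IL4R (0.988), the interleukin 4 receptor chain, and C14H10orf99 (0.987). With 6 points and this many candidates high values can be found for most genes, so nothing is read from them.

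**Figure D5:**
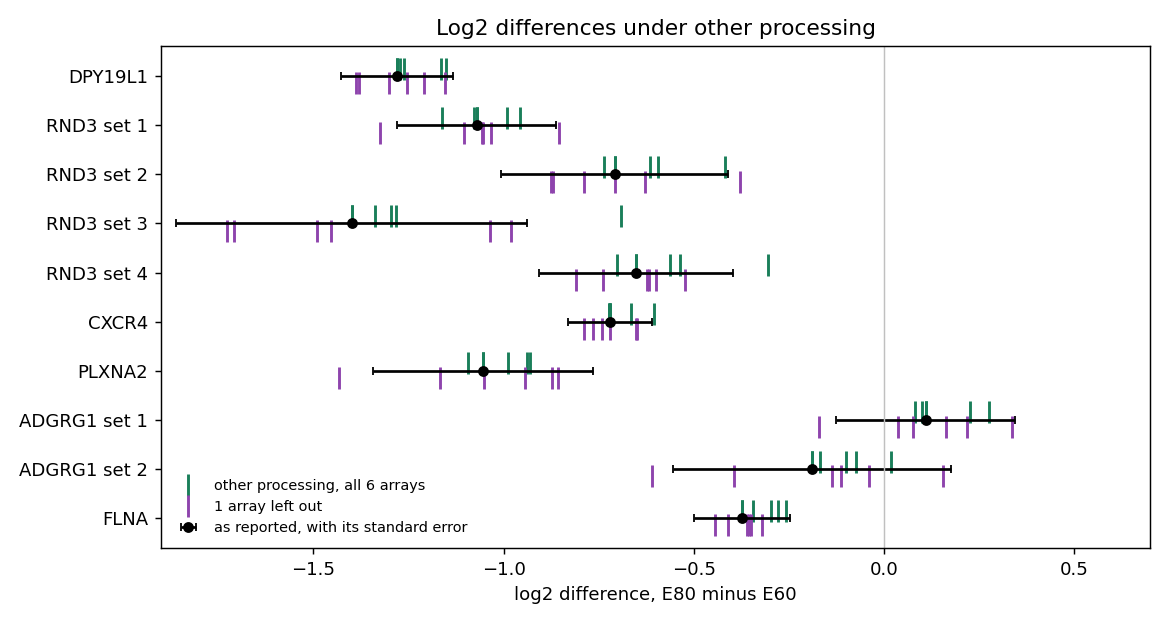
Log2 difference (E80 minus E60) of each probe set of the 6 migration genes as reported, with its standard error as a bar, under other processing of all 6 arrays (green) and with 1 array left out (purple). The sign changes for the 2 ADGRG1 probe sets and for no other.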

How the data were processed

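The deposited values were signal intensities that the authors computed per probe set with the MAS5 algorithm, 1 array per embryo. The labelling protocol describes biotinylated cRNA made from total RNA by the standard Affymetrix procedure, whereas the label field reads Cy5; the values were treated as those of a 1-colour array. The version of MAS5 is not given in the sources used here. All arrays had nearly the same trimmed mean, so they were taken as already scaled. The median signal over all arrays was 59.8, and the number of arrays, 3 a day, limits the precision. After removal of 124 control probe sets, 23999 were tested. Signals were put on the log2 scale with no added constant and fitted with limma 3.58.1 in R 4.3.3 (lmFit, eBayes with an intensity trend), E80 minus E60, with Benjamini-Hochberg adjustment over all 23999 and a threshold of 0.05. The script was tested on simulated data. Symbols came from the platform annotation, where 10069 probe sets had exactly 1. All probe sets of the 6 genes were named. From each list of related genes the text names probe sets past the threshold or up to 3 genes with the smallest adjusted p (brightest probe set). Chosen after their values were seen were CXCL12, COL3A1, ARFGEF2, GAD1, LUM, FBLN1, VLDLR and the dimmer probe sets of CXCL14, PLXNB1, SATB1, RALA, PAFAH1B1 and LAMC1. Other marker genes are named only beside the sums of their lists. The list for RND3 is not reported here and enters only the totals over all lists. The members and lists were chosen with earlier results of these data known. As alternatives, arrays were quantile normalized or centred on their medians, 32 was added before the log, only the brightest 66% were tested, the variance model had no trend or was robust, arrays were weighted, and each array was left out in turn.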

Additional observations from a re-analysis of the deposited data

How the results depend on the processing

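The 6 genes kept their sign in every setting except on the ADGRG1 probe sets. The brighter of these ranged from -0.17 to 0.34 with 1 array left out, and the dimmer one from -0.61 to 0.16, with 0.017 under array weights. Other probe sets that changed sign were PLXNB1 (0.042 after quantile normalization, 0.11 after median centring, -0.093 to 0.096 with an array left out), SEMA4D (-0.11 to 0.45), NTN1 (-1.44 to 0.28) and UNC5B (-0.017 under array weights, -0.12 to 0.21). With all arrays as reported, PLXNB1, SEMA4D and UNC5B differed by -0.005, 0.10 and 0.09, and NTN1 was dim. The 0.45 of SEMA4D (SE 0.13) was reached without array 5, and the -0.11 without array 6.

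Of the probe sets of the 6 genes, 3 fell as reported, 2 after quantile normalization or with 32 added, 1 after median centring, 0 without the intensity trend, 3 under the other settings with all arrays, and 0 to 2 with an array left out, while 0 rose in any setting. Over the whole array, 224 rose as reported, 353 within the brightest 66% of probe sets, 520 under array weights, 0 without the trend and 0 to 178 with an array left out. By the same order 243 fell as reported, and 410, 649, 0 and 1 to 189, with 108 after median centring. On the lists of related genes 1 rose as reported, 2 after quantile normalization or median centring, 4 within the brightest 66%, 6 under array weights, 0 without the trend and 0 to 3 with an array left out. There 1 fell as reported, 0 after median centring, 0 without the trend, 2 under array weights and 0 to 2 with an array left out. Leaving out array 1, 2 or 4 left at most 1 call over the whole array, whereas 97 to 178 rose and 103 to 189 fell without array 3, 5 or 6. For all of these settings the cause was not tested. Median centring moved the median over all probe sets to 0.06, against -0.05 as reported. No paired analysis was possible, because embryos of E60 and E80 cannot share a litter and the labels give them no shared numbers.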
